A study of Mus musculus with 16 samples.

Results

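Liver tissue of DEN-treated mice on a high-fructose diet was compared with liver tissue of DEN-treated mice on a cornstarch diet at 9 months of age. The libraries were chosen by their labels and made up 6 of the 16 libraries of the series, 3 per diet. Diethylnitrosamine (DEN) is a carcinogen that hepatocytes activate and that leads to hepatocellular carcinoma, and all libraries, the cornstarch controls included, came from treated mice. Used beside them were livers of 5 months (2 high-fructose, 3 cornstarch) and liver tumours of 9 months (3 high-fructose, 2 cornstarch), also from DEN-treated mice. The labels gave no strain or sex, and no label ties the libraries to separate mice; p-values thus rest on the variation among the libraries alone, which can be technical. The series' text relates the diets to the intestinal barrier, fatty liver inflammation and liver cancer, and the comparison at 9 months bears on liver tissue taken at the age of the tumours.

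Fructose reaches the liver through the portal vein, where ketohexokinase commits it to breakdown and feeds its carbons into glycolysis, gluconeogenesis and fat synthesis. Hepatocytes make up most of the tissue. Kupffer cells, the resident macrophages of the sinusoids, clear bacterial products that arrive from the gut, and stellate cells store vitamin A and turn into collagen-making myofibroblasts after injury. In bulk tissue, more cells of a type and more RNA per cell cannot be told apart, which holds for every cell type gene below.

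Values are normalised counts, that is, reads divided by 1 factor per library, and are given in the order of replicates 1, 2 and 3, which were numbered here. Fold changes are on the scale of log2(value + 1), which understates the change of low genes, and a gene is said to rise or fall where its limma p-value, adjusted by Benjamini and Hochberg over 13754 genes, was under 0.05. The libraries held 11232461 to 38377674 reads. Mitochondrial genes took 4.73%, 6.23% and 4.68% of the reads of the fructose livers and 5.26%, 7.73% and 7.19% of those of the cornstarch livers. All 6 livers carried Y-linked signal. Cornstarch replicate 3 stood apart: its log2 levels had correlations of 0.934 to 0.958 with the other libraries across the 13754 genes, against 0.950 to 0.976 among the other 5. It also had the lowest summed Y-linked signal of the 6 (1593 against 1917 to 2602) together with the highest value of Xist (226 against 2.89 to 25.8). Hepatocyte markers were abundant in all 6 livers, with summed values of 1126334 to 1840474 under fructose and 1249085 to 1527333 under cornstarch, counted over 6 genes.

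Genes of the matrix and of macrophages were among those that rose in the fructose livers, and the hepatocyte genes Igfbp2 and Fabp1 were among the fewer that fell. Of the 13754 genes tested, 380 passed (2.76%), 348 higher under fructose (2.53%) and 32 lower (0.233%). Of the 348, 247 were in none of the 53 gene lists described below, and of the 32, 28 were in none. The median rise was 2.61-fold and the median fall 1.76-fold. The 3 fructose values lay outside the range of the 3 cornstarch values in all 380, which were chosen by p-values from these same libraries. Over all genes tested, 12.8% lay wholly above and 10.9% wholly below, 47.5% had a positive log2 fold change, and the median was -0.02. In 88 of the 348 genes the lowest fructose value was at least 2 times the highest cornstarch value. Of the 348, 21 passed the filter on low values only through the fructose libraries. Fructose replicate 1 had the highest value in 224 of the 348, and cornstarch replicate 3 the lowest in 244. edgeR called 391 genes (358 higher, 2.60%, and 33 lower, 0.24%) and DESeq2 1002 (749 higher, 5.45%, and 253 lower, 1.84%). By all 3 tools 360 of the 380 passed. Counts of list members below are to be read against these shares over all genes tested.

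These calls rested on the estimate of spread taken from all 11 liver libraries. With the 6 libraries alone, limma and edgeR called 0 genes (2332 and 2363 at an unadjusted p under 0.05) and DESeq2 764. All 380 genes, which were chosen with these same libraries, had an unadjusted limma p under 0.05 in that fit. Without the 2 livers of 5 months, 1 per diet, that carried Xist (12936 and 10883) and next to no Y-linked signal (summed values of 0 and 1.91), 0 passed by limma (2655 unadjusted). The collagen gene Col4a1 had a limma adjusted p of 0.0857 with the 6 libraries alone and 0.0501 without these 2. Its log2 fold change was 1.30 in both fits, a value fixed in advance because both take it from the same 6 libraries. The count was 9, 5 and 0 (2292 unadjusted, by limma) without fructose replicates 1, 2 and 3, 11 without cornstarch replicate 3, and 157 and 147 without either 5-month fructose liver. The adjusted p-values of the calls lay between 0.0230 and 0.0497.

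**Figure D1:**
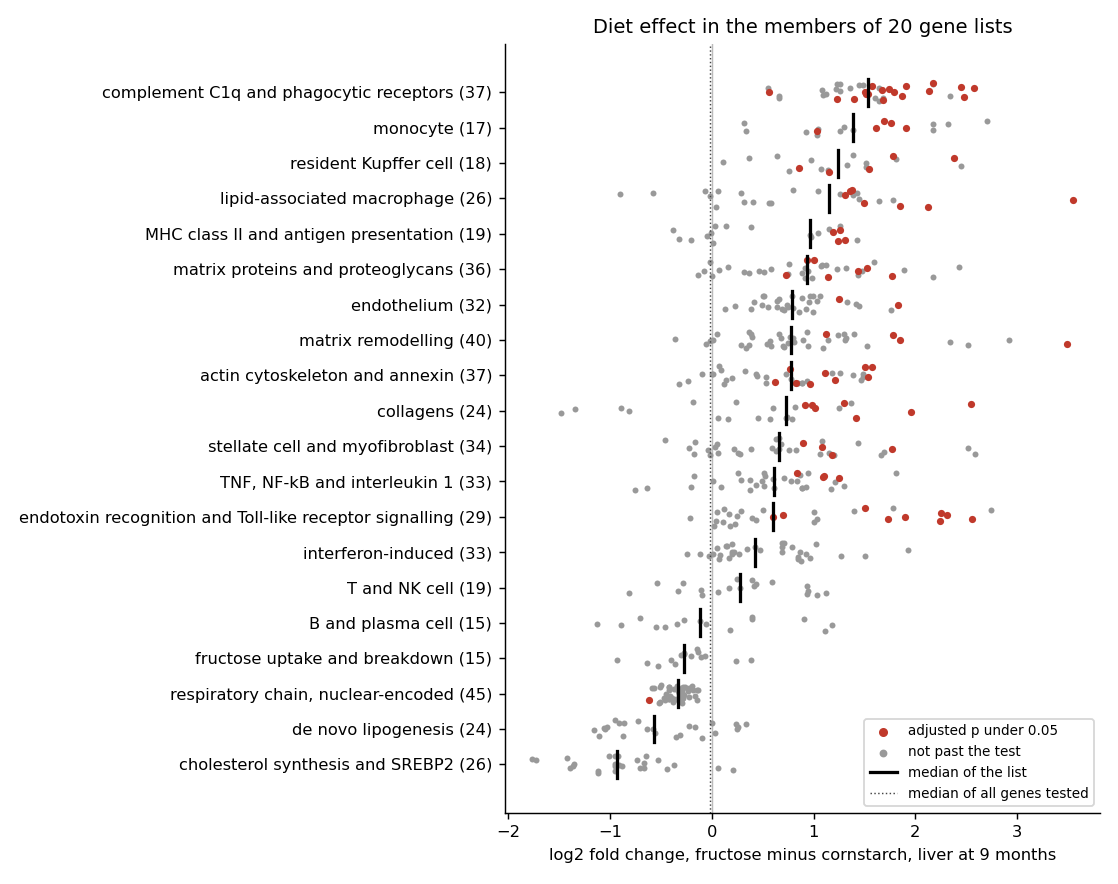
Each point is a gene, placed by its log2 fold change (fructose minus cornstarch, liver at 9 months) within 1 of 20 gene lists, with the number of tested members in brackets; red points passed the limma test, black bars are list medians and the dotted line is the median of all genes tested. Macrophage and matrix lists lie to the right, with a median of 1.53 for complement C1q and phagocytic receptors, and all 45 respiratory chain genes lie to the left of 0.

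Collagen genes rose in 7 of the 24 members tested and fell in 0, at a median log2 fold change of 0.73, and 2 of the 26 listed were under the filter on low values. In 11 of 24 (45.8%) the fructose livers lay wholly above the cornstarch livers, where 12.8% of all genes did, and in 2 (8.33%) wholly below, where 10.9% did. The log2 fold change was negative in 5, down to -1.49. Col4a1, which encodes a chain of the type IV collagen of basement membranes (ENSMUSG00000031502, GRCm38 chromosome 8, 11198423 to 11312826), stood at 1390.0, 1251 and 1375 under fructose and 619, 542 and 472 under cornstarch. All 3 fructose values lay close together and well above the cornstarch values, and the difference was 2.47-fold, or 1.30 on the log2 scale with an SE of 0.14 (limma adjusted p = 0.0230). Its neighbour Col4a2, transcribed from the same promoter region in the other direction, rose 2.02-fold, from 346 ± 100.5 to 680.2 ± 16.8 (SD, n = 3). The genes of the fibrillar type I collagen, the main collagen of liver scars, varied more between libraries. Col1a1 (ENSMUSG00000001506, GRCm38 chromosome 11, 94936224 to 94953042) stood at 861, 256 and 247 under fructose and 51.1, 53.8 and 95.3 under cornstarch, so that fructose replicate 1 held over 3 times the value of the other 2 fructose livers, which still lay above all cornstarch livers. Its fold change was 5.85 (log2 2.55, SE 0.46, adjusted p = 0.0272). Col1a2, the partner chain, stood at 813, 417 and 413 against 126, 112 and 166, with the same library highest, and rose 3.89-fold. Col3a1, which forms mixed fibrils with type I collagen, rose 2.66-fold, and Col6a2, of the beaded filaments around cells, 1.89-fold.

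**Figure D2:**
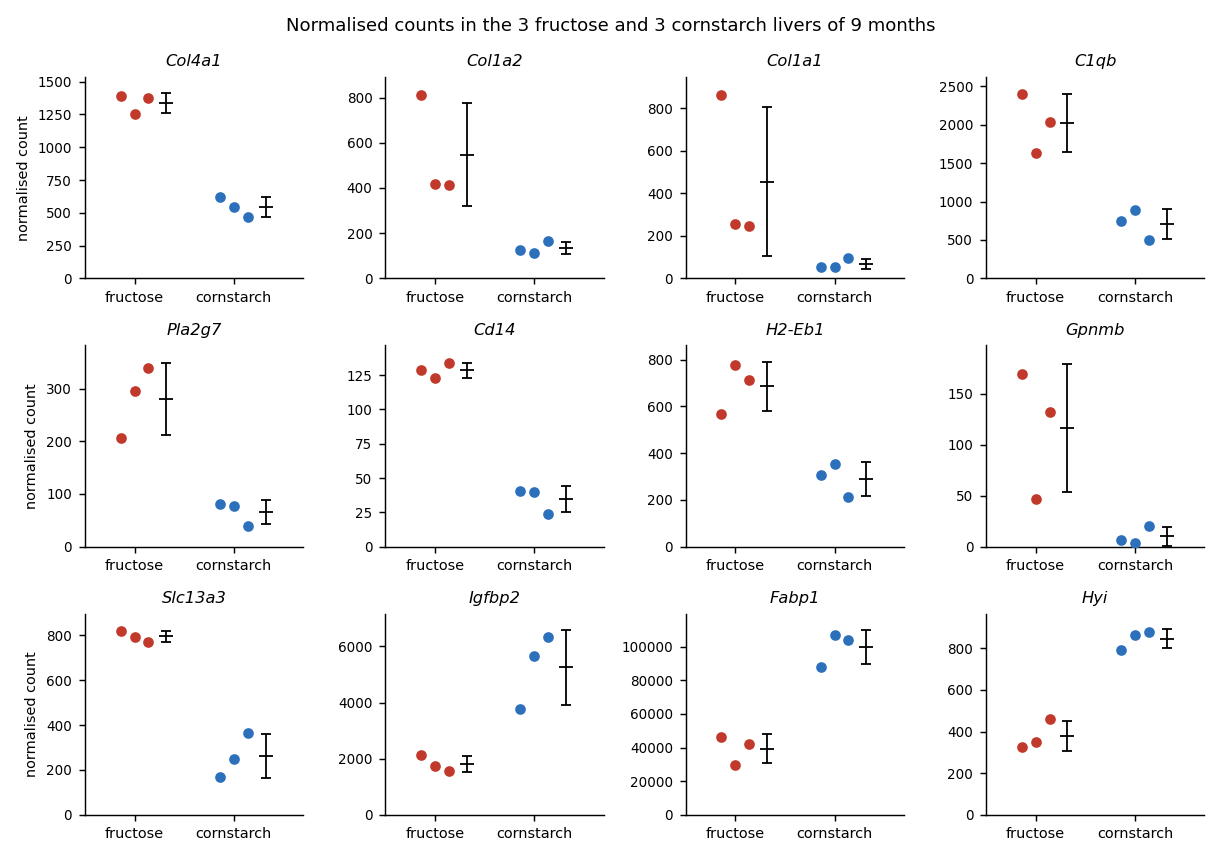
Normalised counts of 12 genes in the 3 fructose livers (red) and 3 cornstarch livers (blue) at 9 months, replicates 1 to 3 from left to right within a group, with mean and SD as bars beside them; every vertical axis starts at 0. The groups do not overlap in any of the 12 genes, all of which passed the test on these libraries, and Col1a1 and Col1a2 show the high value of fructose replicate 1.

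Among other matrix proteins and proteoglycans, 7 of 36 rose and 0 fell, at a median of 0.94, with 3 more under the filter. They included Emilin1, a glycoprotein of elastic fibres (2.20-fold), the fibrillin gene Fbn1 (2.88-fold), Lum, a proteoglycan that spaces collagen fibrils (2.004-fold), and the genes of osteonectin and biglycan, Sparc (1.91-fold) and Bgn (1.66-fold). Of the genes that cross-link or degrade matrix 4 of 40 rose and 0 fell, at a median of 0.78. Of these 40, 6 passed the filter only through the fructose livers, and 1 of the 6 rose. Loxl2, a cross-linking enzyme of collagen, stood at 118, 112 and 79.8 under fructose and 25.1, 33.8 and 28.6 under cornstarch, a rise of 3.43-fold. Lox, a related enzyme, was nearly absent under cornstarch at 0.964, 1.54 and 1.19, which came from 3 reads, and stood at 57.2, 17.9 and 13.1 under fructose. Mmp12, the elastase of macrophages, rose 3.62-fold and Timp2, an inhibitor of metalloproteinases, 2.18-fold. Tgfbi, a matrix adhesion protein induced by transforming growth factor beta, stood at 1063, 1095 and 1216 against 601, 639 and 639.6 and rose 1.79-fold. Its values lay close together within each diet.

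Of the stellate cell and myofibroblast genes 4 of 34 rose and 0 fell, at a median of 0.66. The 4 were Vim, an intermediate filament of mesenchymal cells (2.27-fold), Tgfb1, the main profibrotic cytokine gene (2.12-fold), the pericyte gene Rgs5 (1.86-fold) and the matrix gene Fbln2. Acta2, whose smooth muscle actin marks myofibroblasts, did not pass. It stood at 211, 480.4 and 91.5 under fructose and 66.5, 53.8 and 78.6 under cornstarch (log2 fold change 1.67, SE 0.67, adjusted p = 0.196). Lrat, which esterifies retinol in quiescent stellate cells, had a log2 fold change of 0.28 (SE 0.24). Over 8 stellate and fibroblast markers the summed value was 2821 to 3930 under fructose and 1524 to 2505 under cornstarch. The 4 mesothelial markers, of another cell type that makes matrix, were all under the filter and summed to 9.36 to 32.2 and 0 to 4.76, and the part of either class in these results was not tested. Without fructose replicates 1, 2 or 3 or cornstarch replicate 3, the collagen genes that passed numbered 3, 2, 0 and 2, and the median over collagen genes was 0.68 to 0.90 with any of the 6 libraries left out.

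Genes of macrophages rose as well. Of the list of complement C1q and phagocytic receptors, 18 of 37 rose (2.53% over all genes) and 0 fell, and the median was 1.53. All 37 log2 fold changes were positive, where 47.5% over all genes were. In 34 of 37 (91.9%) the fructose livers lay wholly above the cornstarch livers, against 12.8% of all genes. C1qa, C1qb and C1qc encode the 3 chains of C1q, the recognition molecule of the classical complement pathway, which macrophages make. C1qb (ENSMUSG00000036905, GRCm38 chromosome 4, 136880129 to 136886187) stood at 2394, 1637 and 2033 under fructose and 744, 888 and 498 under cornstarch and rose 2.89-fold (log2 1.53, SE 0.23, adjusted p = 0.0230). C1qa rose 2.64-fold and C1qc 2.83-fold, and in all 3 genes cornstarch replicate 3 was lowest. Axl, a receptor for dying cells, rose 2.85-fold, its relative Mertk 1.47-fold, Siglec1, a sialic acid lectin of macrophages, 4.39-fold, and Csf1r, the receptor for the macrophage growth factor, 3.66-fold.

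The promoters of C1qb and C1qc are shown because both genes rose together with Spi1, which encodes PU.1, a transcription factor of macrophages that binds purine-rich sequences with a GGAA core. Spi1 stood at 335, 202 and 224 against 74.3, 99.9 and 47.6 and rose 3.46-fold. It was named after its value was seen. Capitals mark ACTTCCT, the reverse complement of AGGAAGT, in GRCm38.p6 sequence from RefSeq, read 5′ to 3′ on the minus strand, from chr4:136886211-136886290 for C1qb and chr4:136893067-136893146 for C1qc.
C1qb: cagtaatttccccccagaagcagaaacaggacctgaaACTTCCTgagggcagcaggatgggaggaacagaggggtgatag
C1qc: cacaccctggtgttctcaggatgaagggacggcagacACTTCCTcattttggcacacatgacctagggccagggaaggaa
These letters, on either strand, were in 7.69% of the 32851 promoters of the table within 250 bases before the start, and a match is a description of the sequence only. For C1qc the match farthest from the start within these 250 bases is marked. Whether the letters or Spi1 bear on the rise of either gene was not tested. Of the 380 genes that passed, 294 had a promoter in the table.

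Resident Kupffer cell genes rose in 5 of 18 (2.53% over all genes) and fell in 0, at a median of 1.24. Adgre1, which encodes the F4/80 antigen of macrophages, stood at 1331, 1069 and 853 under fructose and 339, 346 and 72.7 under cornstarch (5.19-fold, adjusted p = 0.0407), with cornstarch replicate 3 far below the other livers. Cd5l, a secreted protein of Kupffer cells, rose 3.45-fold, Slc11a1, a metal transporter of phagosomes, 2.92-fold, Il18bp, the soluble inhibitor of interleukin 18, 2.22-fold, and the C-type lectin gene Clec1b 1.81-fold. Clec4f and Vsig4, further genes of Kupffer cells, did not pass. Clec4f, a lectin, stood at 2678, 2709 and 4148 against 2012, 1932 and 835 (log2 1.07, SE 0.32, adjusted p = 0.105) and Vsig4, a complement receptor, at 1138, 935 and 1257 against 450.3, 658 and 192 (log2 1.52, SE 0.36, adjusted p = 0.0553). The groups did not overlap in either gene. Over 14 macrophage markers, all past the filter, the summed value was 18266 to 25923 under fructose and 4102 to 10506 under cornstarch.

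Genes of lipid-associated macrophages, a state described in fatty and scarred livers, rose in 7 of 26 and fell in 0, at a median of 1.15. Gpnmb, a membrane glycoprotein of such cells (ENSMUSG00000029816, GRCm38 chromosome 6, 49036546 to 49070929), stood at 169.6, 47.0 and 132 under fructose and 6.75, 3.07 and 20.2 under cornstarch, a fold change of 11.8 (log2 3.55, SE 0.64, adjusted p = 0.0261). Pla2g7, a secreted lipase that inactivates platelet-activating factor, stood at 206, 297 and 339 against 80.04, 76.8 and 39.3 and rose 4.35-fold. The lysosomal protease gene Lgmn rose 2.56-fold, the fatty acid carrier gene Fabp4 2.47-fold and the galectin gene Lgals3 2.60-fold. Fabp4 is shared with fat cells. The 7 fat cell markers, of which 2 passed the filter, summed to 814 to 2890 under fructose and 407 to 1367 under cornstarch, with Plin1 and Lep at 0 in all 6 livers, and their part in this result was not tested. Trem2, the receptor that gives these macrophages their common name, stood at 43.7, 7.84 and 45.3 under fructose and 13.5, 20.0 and 25.01 under cornstarch, with overlapping groups and a fold change of 1.32 that did not pass.

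Monocyte genes rose in 5 of 17 (2.53% over all genes) and fell in 0, at a median of 1.39. Ace, Ear2 and Treml4, which mark the patrolling monocytes that stay within vessels, rose 3.07-fold, 3.22-fold and 3.76-fold, and Cx3cr1, their receptor for the chemokine fractalkine, 3.38-fold. Neutrophil granule genes were low: 15 of 27 did not pass the filter, 4 of the 12 tested passed it only through the fructose livers, and the 1 gene that rose, Mpo, was among these 4. It stood at 16.6, 22.4 and 9.06 against 0.964, 1.54 and 0, which came from 2 reads. The 4 mast cell and basophil markers summed to at most 4.08 in any liver. Irf8, a factor of monocyte and dendritic cell lineages, was the 1 dendritic cell gene of 13 that rose (2.02-fold). Among lymphocyte genes 0 of 15 B and plasma cell genes and 0 of 19 T and NK cell genes rose or fell by limma, edgeR or DESeq2 (2 and 4 at an unadjusted limma p under 0.05), at medians of -0.11 and 0.28, against -0.02 over all genes. With 1 of the 6 libraries left out these medians were -0.44 to 0.05 and 0.17 to 0.47. The summed T and NK markers were 85.3 to 93.8 under fructose and 77.1 to 103.6 under cornstarch. Those of B and plasma cells were 179 to 487 and 287 to 590, with overlapping groups. Whether the diet effect differed between macrophage and lymphocyte genes was not tested. Without fructose replicates 1, 2 or 3 or cornstarch replicate 3, 0 genes of the C1q and phagocytic list and 0 Kupffer cell genes passed, while their medians were 1.30 to 1.74 and 0.95 to 1.47 with any of the 6 libraries left out.

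The 12 risen genes with the smallest p that the rule names included several that were in no list. Fermt3, the kindlin that activates integrins in blood cells, stood at 329.8, 184 and 220.2 against 76.2, 66.1 and 63.1 and rose 3.44-fold. Elmo1, a partner of engulfment receptors, rose 3.35-fold, Trpm2, a calcium channel of phagocytes, 3.02-fold, the kinase gene Stk10, expressed in leukocytes, 3.001-fold, and Myof, a ferlin of membrane repair, 3.13-fold. Kcna2, a potassium channel gene, stood at 286, 323 and 343 against 88.7, 135 and 76.2, and Tmc3, of the transmembrane channel-like family, at 168, 133 and 104 against 29.9, 53.8 and 33.4. The phagocyte NADPH oxidase, which makes superoxide, is built from several subunits, and those named here were chosen after their values were seen. Cybb and Cyba, its membrane subunits, rose 4.05-fold and 2.68-fold, and the cytosolic subunit Ncf1 2.44-fold, while Ncf4 did not pass (log2 1.43, SE 0.42, adjusted p = 0.0956). Of the list of actin cytoskeleton and annexin genes 9 of 37 rose (2.53% over all genes) and 0 fell. The 9 were led by the leukocyte genes Rac2, a GTPase that assembles the oxidase (2.97-fold), and Capg, an actin-capping protein of macrophages (2.84-fold).

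Endotoxin, the lipopolysaccharide of gut bacteria, is sensed by TLR4 with the co-receptor CD14. Of the genes of endotoxin recognition and Toll-like receptor signalling 9 of 29 rose (2.53% over all genes) and 0 fell, at a median of 0.60. Cd14 stood at 129, 123 and 134 under fructose and 40.5, 40.0 and 23.8 under cornstarch, with the 3 fructose values close together, and rose 3.73-fold (log2 1.90, SE 0.33, adjusted p = 0.0240). Tlr4 stood at 115, 84.0 and 63.4 against 27.96, 44.6 and 20.2 and rose 2.83-fold. Tlr13, a receptor for bacterial ribosomal RNA, rose 4.97-fold, and Aoah, an enzyme of phagocytes that detoxifies endotoxin, 4.78-fold. Irak3, a brake on Toll-like receptor signalling, rose 5.89-fold and Unc93b1, the chaperone of the endosomal receptors, 1.63-fold. Macrophage markers were higher in the same livers, as given above, and their part in the rise of these genes, which macrophages express, was not tested.

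Genes downstream of these receptors passed in part. Of the TNF, NF-kB and interleukin 1 genes 4 of 33 rose (2.53% over all genes) and 0 fell, at a median of 0.61. They were Osmr, the oncostatin M receptor gene (2.39-fold), the adhesion molecule gene Vcam1 (2.15-fold), the inflammatory caspase gene Casp1 (2.14-fold) and Mlkl. Il1b, the cytokine gene of the inflammasome, stood at 148, 77.3 and 47.1 against 23.1, 33.8 and 14.3 and missed the threshold (log2 1.82, SE 0.43, adjusted p = 0.0509). Tnf was low at 11.4, 8.96 and 6.34 against 4.82, 9.22 and 7.15, and Il6 stood at 0 to 1.54 in the 6 livers, both under the filter. Of the chemokine and receptor genes 2 of 27 rose, Ccl6 (3.31-fold), a chemokine of macrophages, and Cx3cr1. Ccl2, which draws monocytes, stood at 28.1, 11.2 and 22.2 against 6.75, 29.2 and 11.9, with overlapping groups. Interferon-induced genes passed in 0 of 33 by limma (7 unadjusted) and by edgeR and in 1 by DESeq2, at a median of 0.42 that lay between 0.12 and 0.79 with 1 of the 6 libraries left out. Their member with the smallest p, Oas3, an antiviral enzyme, stood at 73.9, 106 and 140.0 against 33.8, 55.3 and 9.53 (adjusted p = 0.0941).

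Class II MHC genes, whose products show antigen to helper T cells, rose at 9 months. Of 19 genes of class II and antigen presentation 4 rose (2.53% over all genes) and 0 fell, at a median of 0.97. H2-Aa (ENSMUSG00000036594, GRCm38 chromosome 17, 34282744 to 34287823) stood at 791, 1091 and 1109 under fructose and 458, 535 and 324 under cornstarch, a rise of 2.29-fold (log2 1.20, SE 0.20, adjusted p = 0.0230). H2-Eb1 stood at 569, 775 and 712 against 306, 352 and 211 (2.40-fold). H2-Ab1 rose 2.37-fold and Cd74, the invariant chain that escorts class II molecules, 2.47-fold. In these 4 genes fructose replicate 1 was the lowest of the fructose livers, the reverse of Col1a1 and Col1a2, and cornstarch replicate 3 was the lowest of all. H2-DMb1, which helps to load peptide, and Ciita, the master coactivator of the class, did not pass, with log2 fold changes of 0.97 and 1.26 (SEs 0.28 and 0.31, adjusted p = 0.0954 and 0.0604). At 5 months the log2 fold changes were -0.25 for H2-Aa, -0.13 for H2-Eb1, -0.21 for H2-Ab1 and -0.26 for Cd74. The difference between the ages missed the threshold in all 4, with adjusted p-values of 0.0924, 0.0924, 0.0930 and 0.139.

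The promoters of H2-Aa and H2-Eb1 are shown because class II genes share the X and Y boxes, the elements through which Ciita acts. Capitals mark CTNGNAACT, letters of the X box that were chosen after the sequences were seen, and TGATTGG, the core of the Y box, in RefSeq sequence of GRCm38.p6. H2-Eb1 is read on the plus strand from chr17:34305743-34305842 and H2-Aa on the minus strand from chr17:34287838-34287937.
H2-Eb1: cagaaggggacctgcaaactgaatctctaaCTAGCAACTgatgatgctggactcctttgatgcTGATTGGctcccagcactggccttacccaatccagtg
H2-Aa: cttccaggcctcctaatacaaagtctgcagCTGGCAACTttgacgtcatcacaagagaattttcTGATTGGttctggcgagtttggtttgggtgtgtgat
The Y box letters were in 7.23% and the X box letters in 3.47% of the 32851 promoters, on either strand. The X letters with the Y letters 10 to 25 bases after them were in 5 promoters (0.0152%), those of H2-Aa, H2-Eb1, H2-DMb1, BC051142 and 1700048F04Rik. The X letters fit the H2-Aa and H2-Eb1 sequences on which they were chosen, and the spacing takes in both. Their matches were thus fixed in advance, and the share is a description only. Whether the letters bear on the rise of either gene was not tested.

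Endothelial genes were higher under fructose in all 32 members by sign (47.5% over all genes), at a median of 0.79. Of the 32, 2 rose (2.53% over all genes). The median was 0.49 without cornstarch replicate 3 and 1.15 without cornstarch replicate 1. By limma 0 rose without cornstarch replicate 3 or any 1 of the fructose replicates. Without cornstarch replicates 2 and 1 the count was 1 and 5. Vwf, the clotting factor gene of larger vessels, stood at 456, 657 and 419 against 197, 132 and 105 and rose 3.57-fold, and Ly6a rose 2.38-fold. The sinusoidal genes Stab2 and Lyve1 did not pass, at log2 fold changes of 1.06 and 1.76 (SEs 0.33 and 0.52, adjusted p = 0.113 and 0.102). The summed endothelial markers were 4657 to 6800 under fructose and 1165 to 3381 under cornstarch. Bile duct and progenitor genes rose in 1 of 16, Ezr, a membrane linker of actin (2.07-fold), at a median of 0.82, and the bile duct markers summed to 1254 to 1586 and 830.3 to 1024.

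Of the 32 genes that fell, 4 were in a list. Igfbp2, a secreted binding protein for insulin-like growth factors (ENSMUSG00000039323, GRCm38 chromosome 1, 72824503 to 72852474), stood at 2118, 1756 and 1578 under fructose and 3775, 5650.3 and 6329.6 under cornstarch, 2.84-fold lower (log2 -1.51, SE 0.22, adjusted p = 0.0230). Fabp1, the abundant fatty acid carrier of the hepatocyte cytosol (ENSMUSG00000054422, GRCm38 chromosome 6, 71199827 to 71205023), stood at 46242, 29553 and 41919 against 88094, 107223 and 103973 and was 2.58-fold lower (log2 -1.37, SE 0.27, adjusted p = 0.0322). It was the 1 gene of 39 in the list of fatty acid oxidation and PPAR alpha targets that fell, and the list median was -0.20 (-0.44 to -0.01 with 1 of the 6 libraries left out). Hyi, a hydroxypyruvate isomerase gene, stood at 326, 348 and 458 against 794, 864 and 879 (2.26-fold lower). All 3 fructose values of these 3 genes lay well below the cornstarch values. The other 9 of the 12 fallen genes with the smallest p fell by less. Rpp40, of the tRNA-processing RNase P, fell 2.21-fold, Tmem131l 1.92-fold, Cfap20, of cilia, 1.88-fold, and Atat1, a tubulin acetyltransferase, 1.8-fold. Ptpmt1, a phosphatase of cardiolipin synthesis in mitochondria, fell 1.68-fold, Cecr2, a chromatin remodelling factor, 1.62-fold, Mdm4, an inhibitor of p53, 1.60-fold, Aadat, of lysine and kynurenine breakdown, 1.51-fold, and the RNA-binding protein gene Atxn2 1.47-fold. Cela1, an elastase gene in the exocrine pancreas list, fell from 283, 378 and 251 to 91.6, 66.1 and 152 (adjusted p = 0.0477), while the pancreatic genes Amy2a5, Pnlip and Prss1 were at 0 in all 6 livers.

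Fabp1 is a known target of PPAR alpha, which binds direct repeats of AGGTCA with 1 base between. The stretch before its start is shown for that repeat, on the plus strand at chr6:71199767-71199826 of GRCm38.p6, from RefSeq. Capitals mark TGACCT, 1 free base and TGNCCT, the repeat read on the other strand, in which N is any base.
Fabp1: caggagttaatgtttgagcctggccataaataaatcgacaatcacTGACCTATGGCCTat
The pattern was in 27 of the 32851 promoters (0.0822%), on either strand, within 250 bases before the start. Its N stands where the Fabp1 sequence, with G in place of A, departs from the repeat. The pattern thus fits this sequence, and its share is a description only. Whether the letters bear on the fall of Fabp1 was not tested.

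Some genes of metabolism rose. Slc13a3, a transporter of succinate and other dicarboxylates (ENSMUSG00000018459, GRCm38 chromosome 2, 165405028 to 165473230), stood at 822, 794 and 771 against 169, 250.5 and 363, with the 3 fructose values close together, and rose 3.19-fold (log2 1.67, SE 0.28, adjusted p = 0.0230). It was the 1 pericentral gene of 24 that rose (2.53% over all genes). Gpx3, a secreted glutathione peroxidase, rose 4.07-fold and Cbr3, a carbonyl reductase, 6.53-fold. They were 2 of 33 genes of the NRF2 antioxidant list (2.53% over all genes). Of the 26 genes of glycolytic isozymes and hypoxia 3 rose and 0 fell, at a median of 0.14, with 7 negative. The 3 were Pkm, Pfkp and Hk3, isozymes that hepatocytes express little, at 2.62-fold, 2.21-fold and 2.82-fold. Hepatocyte secreted protein genes passed in 0 of 34 and hepatocyte transcription factor genes in 0 of 34 by limma and by edgeR (3 and 3 unadjusted by limma), and DESeq2 called 3 of the first higher and 2 of the second lower. Their medians were -0.04 and -0.06, near that of all genes.

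Nuclear-encoded genes of the respiratory chain were lower under fructose in all 45 members by sign, at a median of -0.33. Their log2 fold changes spanned -0.61 to -0.13. In 29 of 45 (64.4%) the fructose livers lay wholly below the cornstarch livers, against 10.9% of all genes. Only Cox7b, a subunit of cytochrome c oxidase, passed limma, at 1589, 1645 and 1866 against 2447, 2302 and 3099 (1.53-fold lower, adjusted p = 0.0477). DESeq2 called 12 of the 45 lower, where it called 1.84% of all genes lower, and edgeR 0. Sdhb, of complex II, stood at 2135, 2243 and 2285 against 3277, 2594 and 3301 (log2 -0.45, SE 0.12, adjusted p = 0.0775), and Ndufb9, of complex I, had a log2 fold change of -0.47 (SE 0.13). Cornstarch replicate 3 had the highest level of most of these genes and the median was -0.26 without it. Medians were also negative at 5 months (-0.42, with 15 called lower against 4.35% of all genes) and in tumours (-0.40), where 0 passed by limma (12 unadjusted). The mitochondrial share of reads, given above, moved in the same direction in part, with fructose replicate 2 above cornstarch replicate 1, and its part in this result was not tested.

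**Figure D3:**
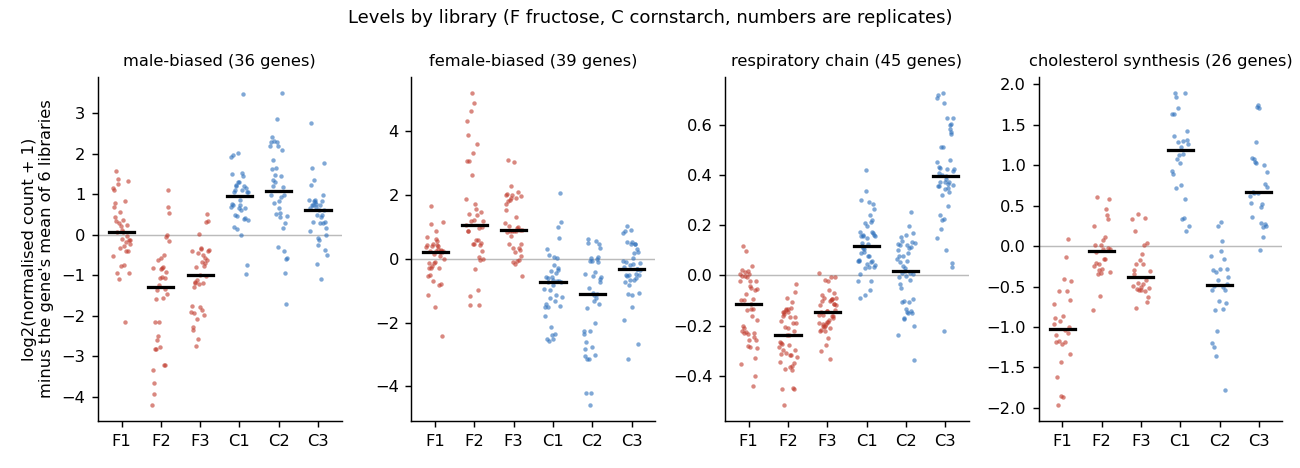
Each point is a gene's log2(normalised count + 1) in a library minus its mean over the 6 livers at 9 months, for 4 gene lists; F1 to F3 are fructose and C1 to C3 cornstarch replicates, and black bars are medians. Respiratory chain genes lie below 0 in the 3 fructose livers at the median, male-biased genes are lowest in F2 and F3, and cholesterol synthesis genes are highest in C1 and C3.

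Genes of fructose breakdown and fat synthesis did not pass the test. Of 15 genes of fructose uptake and breakdown 0 passed by limma (1 unadjusted), edgeR or DESeq2, at a median of -0.27 (-0.34 to -0.11 with 1 of the 6 libraries left out). Khk, encoding ketohexokinase, stood at 3259.6, 6355 and 5948 under fructose and 10855, 5639.5 and 4628 under cornstarch, and the fructose transporter gene Slc2a5 at 60.3, 244 and 129 against 226, 279.7 and 211. The log2 fold changes were -0.40 for Khk, -0.93 for Slc2a5 and -0.31 for the triokinase gene Tkfc, with SEs of 0.34, 0.43 and 0.24. Of 24 lipogenesis genes 0 passed by any of the 3 tools (3 unadjusted by limma). Fasn, the fatty acid synthase gene, stood at 1889, 7359 and 4249.5 under fructose and 63332, 2448 and 3435 under cornstarch, and Acaca, of the enzyme before it, at 1240.2, 2905 and 1929 against 11648, 1584 and 1213. Both were far higher in cornstarch replicate 1 than in any other liver. Scd1, the stearoyl-CoA desaturase gene, ranged from 8952 in cornstarch replicate 3 to 1026744 in cornstarch replicate 1, with 18075, 708171 and 416727 in the fructose livers, so that the groups overlapped over nearly their whole range. The lipogenesis median was -0.57 with all libraries, 0.32 without cornstarch replicate 1, -0.14 without fructose replicate 1 and -0.98 without cornstarch replicate 3.

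**Figure D4:**
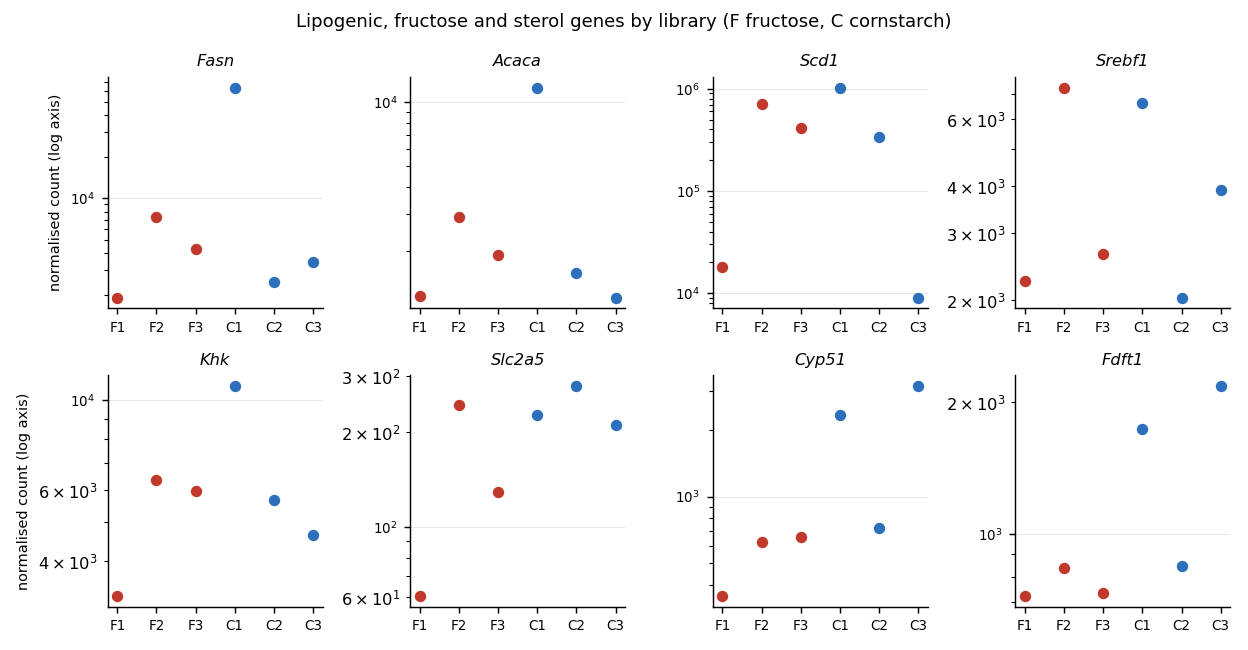
Normalised counts (log axis) of 8 genes of lipogenesis, fructose handling and sterol synthesis in each fructose (F, red) and cornstarch (C, blue) liver at 9 months. Fasn and Acaca are highest in C1, Scd1 overlaps between the diets, and Cyp51 and Fdft1 are highest in C1 and C3.

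Sterol synthesis genes were lower by sign in 24 of 26, at a median of -0.94, and 0 passed limma (10 unadjusted) or edgeR. DESeq2 called 7 lower, where it called 1.84% of all genes lower. Sc5d, of a late step of cholesterol synthesis, stood at 2089, 3835 and 3093 against 9457, 4484 and 5985, with groups that did not overlap (log2 -1.12, SE 0.30, adjusted p = 0.0771). Cyp51 stood at 355, 623 and 660.3 against 2335, 719 and 3161, with groups that did not overlap. The list median was -0.52 without cornstarch replicate 1 and -1.43 without cornstarch replicate 2.

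Genes that differ between male and female livers separated the libraries. Growth hormone, secreted in pulses in males, sets much of this difference. Male-biased genes were lower under fructose by sign in 32 of 36 (median -1.60). Female-biased genes were higher in 36 of 39 (median 1.26), where 47.5% of all genes were. In 15 male-biased genes (41.7%) the fructose livers lay wholly below the cornstarch livers, against 10.9% of all genes. In 15 female-biased genes (38.5%) they lay wholly above, against 12.8%. Of the 39, 2 passed the filter only through the fructose livers. By limma 0 of either list passed (3 and 9 unadjusted), edgeR called 2 and DESeq2 5 female-biased genes, and neither called a male-biased gene. Fructose replicates 2 and 3 lay farther than fructose replicate 1 from the cornstarch livers. Cux2, a repressor specific to female liver, stood at 12.5, 1150.0 and 313 under fructose and 5.79, 4.61 and 16.7 under cornstarch. Hsd3b5, a steroid dehydrogenase of male liver, stood at 578, 161 and 120.1 against 2932, 3559 and 1213, and Cyp4a12a, a male P450, at 5093, 324 and 294 against 4549, 5459.7 and 5022, so that fructose replicate 1 lay among the cornstarch livers for the latter. Reads of the Cyp4a12, Cyp2d and Mup genes are hard to separate from those of near-identical copies. All 6 livers had Y-linked signal, and Xist was highest in cornstarch replicate 3 (226) and fructose replicate 2 (25.8). The part of either in these differences was not tested. At 5 months, where 1 liver per diet carried Xist and next to no Y-linked signal, the medians were -1.05 for male-biased and 0.45 for female-biased genes. In tumours they were -2.79 and 0.33. All 36 male-biased genes were lower by sign in tumours, 28 of them at an unadjusted limma p under 0.05, and 0 passed.

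Tumour-related genes varied by library. Afp, the fetal albumin-like protein that marks liver tumours, stood at 202, 48.2 and 484 under fructose and 356, 41.5 and 276 under cornstarch, and Gpc3, a glypican of liver tumours, at 132, 49.3 and 555 against 450.3, 43.0 and 183. Both were lowest in fructose replicate 2 and cornstarch replicate 2 and highest in fructose replicate 3. Of the oncofetal and liver tumour list 4 of 36 rose: Cbr3, Anxa5, S100a6 and Aldh1a3, of which the last passed the filter only through the fructose livers. Cell cycle genes passed in 0 of 35 by any of the 3 tools (4 unadjusted by limma), at a median of 0.42 that was 0.08 without fructose replicate 3 and 0.17 without cornstarch replicate 3. Mki67, expressed in dividing cells, stood at 84.3, 84.0 and 267 against 100.3, 109 and 35.7. Acute phase genes passed in 0 of 27 by limma (9 unadjusted) and edgeR, at a median of 0.50. DESeq2 called 6 of them higher, where it called 5.45% of all genes higher.

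Of the 348 genes that rose at 9 months, 339 were also higher under fructose at 5 months, where 48.0% of all genes were. At 5 months 258 (74.1%) passed, where 9.42% of all genes tested were called higher. The median log2 fold change of the 348 was 1.38 at 9 and 1.38 at 5 months. Of the 32 that fell, 31 were lower at 5 months and 16 passed, against 4.35% of all genes. The livers of the 2 ages are different libraries, but both ages entered the same estimate of spread. In tumours 319 of the 348 were higher under fructose, where 46.8% of all genes were, and all 32 lower, at medians of 0.72 and -0.39. By limma (1110 at an unadjusted p under 0.05) and by edgeR 0 genes were called in tumours. DESeq2 called 111 there (0.807%), 34 higher (0.247%) and 77 lower (0.56%).

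**Figure D5:**
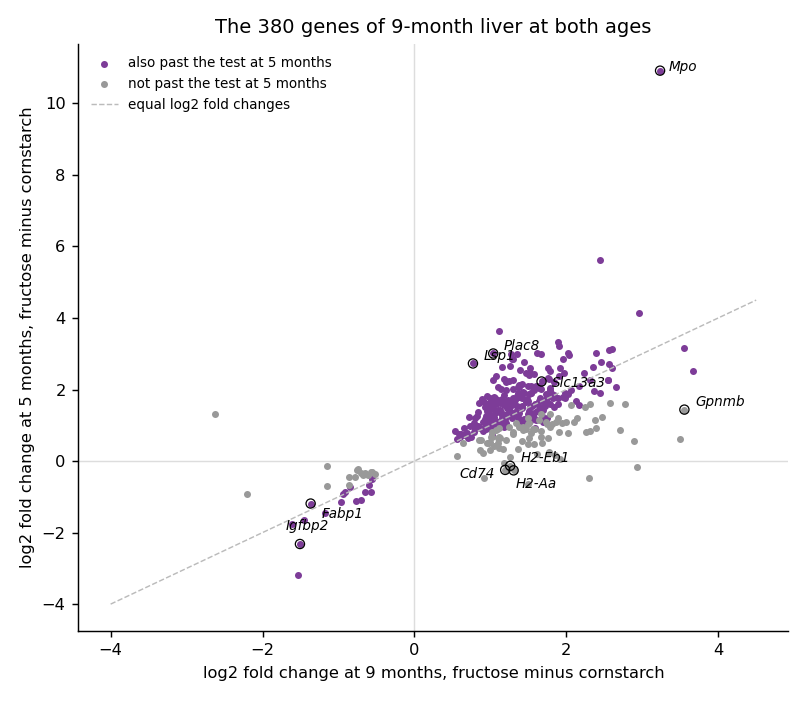
Log2 fold changes (fructose minus cornstarch) at 9 months (horizontal) and 5 months (vertical) of the 380 genes that passed at 9 months; purple points also passed at 5 months, circles mark named genes (Mpo at a fitted value that rests on 2 cornstarch reads) and the dashed line marks equal values. Most points lie in the same quadrant at both ages, and H2-Aa, H2-Eb1 and Cd74 lie near 0 at 5 months.

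The test of the difference between the ages called 36 genes of the 13754 (1 higher, 0.00727%, and 35 lower, 0.254%, as 9 minus 5 months). Of the 380 genes, 4 were among them: Mpo, Lsp1, S100a6 and Plac8, all with a larger log2 fold change at 5 months, which for Mpo rested on 2 cornstarch reads at each age. Plac8 rose 2.05-fold at 9 months and its log2 fold change was 1.04 there and 3.01 at 5 months. Anxa1, an annexin of myeloid cells, had log2 fold changes of 0.73 and 4.29, Orm2, an acute phase protein with near-identical copies, of 1.60 and 6.72, and S100a9, a calprotectin subunit, of 1.62 and 8.52. The acute phase list had a median of 0.50 at 9 and 2.63 at 5 months and the cell cycle list of 0.42 and 2.05. For collagens the medians were 0.73 and 1.07, for Kupffer cell genes 1.24 and 0.97 and for C1q and phagocytic receptors 1.53 and 1.39. Between tumours and liver at 9 months the difference test called 0 genes by limma and edgeR (398 and 434 at an unadjusted p under 0.05) and 2 by DESeq2. For collagens the tumour median was 0.10, for Kupffer cell genes 0.30 and for C1q and phagocytic receptors 0.95.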

How the data were processed

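RNA of 16 libraries of liver and liver tumour was extracted, poly(A) RNA libraries were made and reads were sequenced, per the labels' protocols. The authors' tools were FastQC, Trim Galore, STAR, RSEM and DESeq2 with the GRCm38 build, per the submitters' processing notes; the sources used here give no versions or parameters. The deposited table holds a normalised signal per gene, in which 100% of the values came out as whole multiples of the value of 1 read in each library. The whole reads recovered in this way (11232461 to 38377674 per liver of 9 months) were the input of edgeR (391 genes called) and DESeq2 (1002). How reads were divided between near-identical copies is not given in the files or labels, so values of the Mup, Orm and Cyp families are uncertain.

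Genes at 10 or more in 2 or more of the 6 libraries were tested on log2(value + 1) with limma 3.58.1 (R 4.3.3) with a mean-variance trend, on all 11 liver libraries in 4 groups; edgeR 4.0.16 and DESeq2 1.42.0 were alternatives. The difference between ages came from the same fit and that between tumours and liver from a fit of the 11 libraries of 9 months. On simulated data with changes of known size in 100 genes per size among 13754 genes, the test of diet at 9 months recovered 35% of 2-fold and 81% of 4-fold changes, and 3.333% of its calls were false. The simulation drew each gene independently, around 1 mean shared by all liver groups before the changes, and held no library that stood apart. Its share of false calls thus does not measure that among the 380 genes called. The text names the 12 risen and 12 fallen genes with the smallest p among those with a symbol of a known gene, a mean of 50 or more and groups without overlap, the 3 leading members of each list, the 5 leading genes of each difference test, a fixed set and other list members as values. The libraries, the gene lists and the tests were chosen with earlier results of these data known. Gene positions are from GENCODE for GRCm38. A gene with at most 3 reads in a group is given as levels, without a fold change. Alternatives covered the pseudocount, the filter, the scaling, the tool, the libraries that share the spread and each library left out; fits of edgeR and DESeq2 to the 6 libraries alone were added after the data were seen. Some genes are not reported here.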

Additional observations from a re-analysis of the deposited data

Results flagged for a closer look

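The diet effect differed between 9 and 5 months in 36 genes by limma at an adjusted p under 0.05 (1478 unadjusted), of which 35 had a smaller log2 fold change at 9 months. Genes with the smallest p among them are given by the difference of their log2 fold changes, 9 minus 5 months, a test over 3 against 3 livers at 9 months and 2 against 3 at 5 months. Neutrophil granule genes had differences of -6.90 for S100a9 and -5.50 for Prtn3. Mpo and Ngp held 2 reads each over the cornstarch livers of 9 months, so their levels are given without a difference. Mpo stood at 16.6, 22.4 and 9.06 against 0.964, 1.54 and 0 at 9 months and 3144 and 2414 against 1.91, 0 and 0 at 5 months. Ngp stood at 16.6, 7.84 and 10.9 against 1.93, 0 and 0 and 4641 and 3844 against 6.68, 0 and 0. The acute phase genes Orm1 and Orm2, which encode near-identical orosomucoids, had differences of -2.96 and -5.13. The chromatin protein gene Hmgb2, high in dividing cells, had a difference of -2.27 and Anxa1 of -3.56. The count was 1 without fructose replicate 2 of 9 months, 2 without fructose replicate 2 and 10 without cornstarch replicate 2 of 5 months, 15 without fructose replicate 1 and 19 without cornstarch replicate 2 of 9 months, and 19 without cornstarch replicate 3 of 5 months. The summed neutrophil markers at 9 months were 172 to 230 under fructose and 36.9 to 75.3 under cornstarch. Their part in these differences was not tested.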

How the results depend on the processing

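No paired analysis was possible because the labels give the libraries no replicate numbers or mice. The 380 calls at 9 months became 248 without a filter, 71 (69 higher, 2 lower) with array weights, 1002 with DESeq2, 0 with limma or edgeR on the 6 libraries alone (2332 and 2363 unadjusted), 764 with DESeq2 on those 6, 0 with limma on the 11 libraries of 9 months (2110 unadjusted) and 0 with limma without the 2 XX livers (2655 unadjusted), and 0 to 463 with 1 library left out; other settings gave 278 to 409. By DESeq2 74.75% of the calls were higher, against 91.58% by limma. The 1894 calls at 5 months became 3359 with array weights, 935 without the 2 XX livers and 426 to 2426 with 1 library left out; the higher calls were 1296 of 1894 and, with TMM scaling, 1146 of 1998. The 36 differences between the ages became 71 with a pseudocount of 5, 87 without a filter, 15 with a filter of 50, 67 with array weights, 281 with DESeq2 and 1 to 50 with 1 library left out; the difference between tumours and liver, 0 by limma and edgeR (398 and 434 unadjusted), became 2 with DESeq2 and was 0 to 0 with 1 library left out. Of 141 single genes, 134 kept their direction in each setting run, and the other 7 changed sign. In limma fits that changed only the moderation or the libraries sharing the spread, a log2 fold change could not move. Leaving out 1 library could not change the sign of a gene whose groups did not overlap. Kept directions are thus in part fixed in advance. Over 4082 pairs of a gene and a setting, a call was lost in 1190 and gained in 51. With 1 library left out the log2 fold change ran from -0.00365 to 1.19 for Trem2, -1.92 to 0.426 for Fasn, -1.17 to 0.461 for Acaca, -1.75 to 1.90 for Scd1, -0.618 to 0.319 for Srebf1, -0.896 to 0.959 for Afp and -0.914 to 0.819 for Gpc3. The upper ends for Fasn, Acaca and Srebf1 came without cornstarch replicate 1. With all libraries, Scd1 gave -0.186 with array weights, -0.252 with edgeR and -0.265 with DESeq2 (also -0.252 and -0.265 on the 6 libraries alone), Srebf1 0.0795 with quantile normalisation and 0.00517 with array weights, Afp -0.0139 with quantile normalisation, and Gpc3 -0.00188 with upper quartile scaling and -0.0723 with quantile normalisation. The cause was not tested. Each scaling left the median of all genes between -0.0402 and -0.0061. Reads limit low genes: counts cover sampling error only.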

Other observations

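Lysosomal genes rose in 4 of 39 and fell in 0, at a median log2 fold change of 0.32. They included Laptm5, a lysosomal membrane protein of blood cells, at 1329, 778 and 803 against 342, 366 and 166 (3.41-fold), and Hexa, a subunit of beta-hexosaminidase (1.48-fold). Of the p53 target and cell death genes 3 of 30 rose and 0 fell, at a median of 0.32. Pmaip1, which encodes the proapoptotic protein NOXA, stood at 72.8, 48.2 and 44.4 against 18.3, 24.6 and 9.53 and rose 3.16-fold, and the other two were Bcl2a1b and Casp1, both of leukocytes. Klf6, an early response transcription factor, was the 1 immediate early gene of 20 that rose (1.93-fold), where 2.53% of all genes did. Tfrc, the transferrin receptor gene, rose 2.23-fold, and was the 1 gene of 10 in the red cell precursor list that passed (2.53% over all genes). With any 1 of the 6 livers left out, 0 genes of that list rose. The 4 red cell precursor markers summed to 833 to 1287 under fructose and 1059 to 2745 under cornstarch.

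Among hepatocyte pathways, Slc10a1, the bile acid uptake transporter, stood at 8207, 10409.8 and 9948 against 14628, 13524 and 14607, with groups that did not overlap, and missed the threshold (log2 -0.59, SE 0.15, limma adjusted p = 0.0732). Cyp7a1, of the rate-limiting step of bile acid synthesis, stood at 2834, 7382 and 1883 against 270.0, 2137 and 4317, with overlapping groups. The clock output gene Dbp stood at 394, 2031 and 437 against 2309, 2477 and 2709.8, so that fructose replicates 1 and 3 were low and fructose replicate 2 was near the cornstarch livers. Times of collection are not given in the labels. Circadian clock genes passed in 0 of 20 by limma (4 unadjusted) and edgeR and in 1 by DESeq2, at a median of -0.44 that was -0.05 without fructose replicate 3 and -0.85 without fructose replicate 2. Drug metabolism genes passed in 0 of 47 by limma (7 unadjusted) and in 1 each by edgeR and DESeq2, at a median of -0.03 (-0.05 to 0.28 with 1 of the 6 libraries left out).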
